A study of Mus musculus with 18 samples.

Results

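Genes of the liver's basement membrane, its small proteoglycans and the proteins that bind and remodel matrix were followed through a mouse study of early-life low-dose penicillin (LDP). The set holds 34 genes, named by symbol, and all 34 were found in both deposited count tables, of 38924 gene IDs in the table of males and 23337 gene symbols in the table of females. RNA was taken from livers at 8 weeks of age, from 18 mice in 6 groups of 3. LDP males (mice 8, 10 and 11) and LDP females (mice 39, 52 and 54) were C57BL6J mice given the antibiotic from birth. Control males (mice 5, 6 and 7) and control females (mice 29, 30 and 32) were C57BL6J mice without antibiotics. These 4 groups were weaned at 4 weeks onto normal chow and ate a diet with 45% of its calories from fat from week 6. LDP-microbiota recipients (mice 2, 5 and 8) and control-microbiota recipients (mice 1, 3 and 7) were female germ-free Swiss Webster mice that were given the gut microbiota of LDP or control females at 3 weeks of age, ate the same high-fat diet and received no antibiotic themselves. The labels number individual mice but give neither litter nor cage, so the p-values below measure the spread between these mice, part of which may come from shared litters or cages.

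A basement membrane is a thin sheet of matrix in which networks of collagen IV and laminin are tied together by nidogens and the heparan sulphate proteoglycan perlecan. In the liver such sheets surround bile ducts and vessels, while the sinusoid, where blood meets hepatocytes, has only a sparse and discontinuous matrix. Most of this matrix is made by mesenchymal cells, chiefly hepatic stellate cells and portal fibroblasts, and by endothelium, whereas hepatocytes make plasma fibronectin and much of the liver's collagen XVIII. Small leucine-rich proteoglycans bind collagen fibrils, fibrillin and elastin form elastic fibres, matricellular proteins such as thrombospondins signal from the matrix, and metalloproteinases and their tissue inhibitors (TIMPs) set its breakdown.

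Libraries of males held 70336366 to 74418889 counted reads and libraries of females 17937005 to 28646168, so genes of low level are measured less precisely in females. Levels are given as CPM, read counts scaled to a common library size, with the mice of a group in the order of their numbers above. As a check of the labelled tissue, 8 hepatocyte markers, none of them at 0 throughout a group, summed to between 82658 and 183237 CPM in the 18 livers. Timp1, which encodes a metalloproteinase inhibitor, was near the detection limit: it had 0 reads in LDP-microbiota recipient 5 and in control-microbiota recipient 3, where 3 reads would be 0.160 and 0.135 CPM, and at most 18 reads in any liver. It passed the filter on low counts in males and in none of the comparisons between groups of females, so 33 members were tested there. In bulk liver RNA, fewer cells of a type and less RNA per cell cannot be told apart.

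Per kilobase of transcript, the members spanned a wide range in males, where the table gives gene lengths. Fn1 (fibronectin) was at 234 ± 32 CPM per kilobase in LDP males and 248 ± 14.4 in control males (SD, n = 3 each), and Col18a1 (collagen XVIII) was at 153 ± 2.37 in LDP males and 154 ± 13.6 in control males. Dcn (decorin) and Ecm1 (extracellular matrix protein 1) came next, at 93.4 ± 28.2 and 58.9 ± 14.4 CPM per kilobase in LDP males, against 90.4 ± 7.65 and 59.6 ± 6.91 in control males. Sparc, which encodes a collagen-binding matricellular protein, was the fifth in order, at 20.9 ± 7.82 in LDP males and 19.4 ± 1.27 in control males. Bgn (biglycan) followed, at 17.6 ± 5.33 in LDP males, where the ranges of both genes overlapped, and 17.5 ± 0.667 in control males, where they did not. Among basement membrane collagens, Col4a1 was at 7.80 ± 2.13 CPM per kilobase in LDP males and 7.0 ± 0.604 in control males, and Col4a2, whose chain joins that of Col4a1 in the same triple helix, at 5.45 ± 1.42 in LDP males and 5.08 ± 0.714 in control males. Col4a1 and Col4a2 overlapped in range in LDP males and did not in control males. Fbln1 (fibulin 1), at 0.362 ± 0.0635 in LDP males and 0.271 ± 0.00716 in control males, and Timp1 were lowest.

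Some members share genomic sequence with a neighbour. Col4a1 and Col4a2 lie head to head on chromosome 8 (mm10), and their annotated first 22 bases overlap on opposite strands. Timp3 lies inside Syn3 and Timp1 inside Syn1, both on the opposite strand, and the host genes averaged 0.929 and 0.568 CPM in males. The annotated intervals of Nid2 and Rtraf, of Col18a1 and Slc19a1, and of Ogn and Cenpp also overlap on opposite strands. Whether the counting used strand is not given in the sources used here, so reads in such overlaps cannot be told apart.

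RefSeq promoter sequences (GRCm38.p6, which is mm10) were at hand for 25 of the 34 members. The 250 bases before the annotated start are printed, 5′ to 3′ on the gene's own strand, for 5 genes: Fbn1 and Sparc, members of small p in LDP females, and Timp2, Timp3 and Ecm1, which differed between control-microbiota recipients and control females. The windows are chr2:125506439-125506688 (minus strand), chr11:55420081-55420330 (minus strand), chr11:118355412-118355661 (minus strand), chr10:86300162-86300411 (plus strand) and chr3:95739570-95739819 (minus strand). RefSeq starts can lie inside the wider gene bounds of GENCODE M21, which are the bounds given below. Those of Sparc, Fbn1, Timp2 and Timp3 do. Capitals mark the matches to any of 4 motifs, searched on both strands: the TATA box (TATAAA), the CCAAT box (CCAAT), the GC box (GGGCGG) and the AP-1 site (TGANTCA).
Fbn1: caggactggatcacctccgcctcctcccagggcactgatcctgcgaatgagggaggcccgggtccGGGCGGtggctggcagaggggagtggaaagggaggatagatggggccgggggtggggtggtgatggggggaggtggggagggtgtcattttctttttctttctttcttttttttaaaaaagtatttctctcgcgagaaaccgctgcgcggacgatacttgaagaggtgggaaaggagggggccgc
Sparc: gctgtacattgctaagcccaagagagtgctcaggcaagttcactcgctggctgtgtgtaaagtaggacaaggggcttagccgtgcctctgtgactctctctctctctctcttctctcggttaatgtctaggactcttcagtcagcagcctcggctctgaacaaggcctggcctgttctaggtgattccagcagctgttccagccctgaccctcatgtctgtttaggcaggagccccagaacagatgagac
Timp2: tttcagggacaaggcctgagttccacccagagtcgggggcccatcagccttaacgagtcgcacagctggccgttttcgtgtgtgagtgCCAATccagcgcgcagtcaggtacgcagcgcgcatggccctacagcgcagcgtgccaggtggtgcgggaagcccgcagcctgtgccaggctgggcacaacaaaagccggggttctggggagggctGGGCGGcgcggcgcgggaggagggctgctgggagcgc
Timp3: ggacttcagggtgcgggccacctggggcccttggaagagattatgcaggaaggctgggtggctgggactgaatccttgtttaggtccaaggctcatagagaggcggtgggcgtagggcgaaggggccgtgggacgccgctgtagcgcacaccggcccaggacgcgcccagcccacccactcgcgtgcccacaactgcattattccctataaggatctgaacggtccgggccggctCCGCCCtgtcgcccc
Ecm1: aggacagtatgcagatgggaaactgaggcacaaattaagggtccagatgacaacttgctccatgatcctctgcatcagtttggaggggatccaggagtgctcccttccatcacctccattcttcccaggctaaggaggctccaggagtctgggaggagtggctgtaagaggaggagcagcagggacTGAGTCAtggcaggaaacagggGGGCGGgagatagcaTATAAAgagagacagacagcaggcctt

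Of these 5, the Ecm1 window held a TATA box, a GC box and an AP-1 site, the Timp2 window a CCAAT box and a GC box, the Timp3 and Fbn1 windows a GC box, and the Sparc window none of the 4. Over the 25 members with a sequence, the GC box was found in 64.0% (32.7% of 32851 promoters of the same length), the CCAAT box in 44.0% (33.8%), the TATA box in 12% (12.4%) and the AP-1 site in 4.0% (6.75%). A match to these letters is a description of the sequence and not a bound site.

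The first question was whether early-life penicillin left the matrix genes of the liver different in females. Most members were somewhat higher in LDP females, by 1.26-fold to 2.31-fold for the 12 of smallest p, and none passed the threshold after adjustment over all genes. Of 33 members tested, 28 had a log2 change above 0 (50.9% of 12914 genes did), and the median log2 change was 0.34 against 0.00 over all genes. An unadjusted p under 0.05 with a higher level was reached by 15 members, against 2.69% of all genes, and by 0 with a lower level (1.82% of all genes). In 12 of the 33, all 3 LDP females lay above all 3 control females, against 4.97% of all genes, and in 0 below them, against 4.07%. With edgeR's quasi-likelihood test and Benjamini-Hochberg adjustment over all genes, 0 members were called, as were 0 of all genes; DESeq2 also called 0 members, against 0.123% of 12162 genes. The 34 genes were listed with earlier results on these livers known, so these counts describe the members and are not an independent test.

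**Figure D1:**
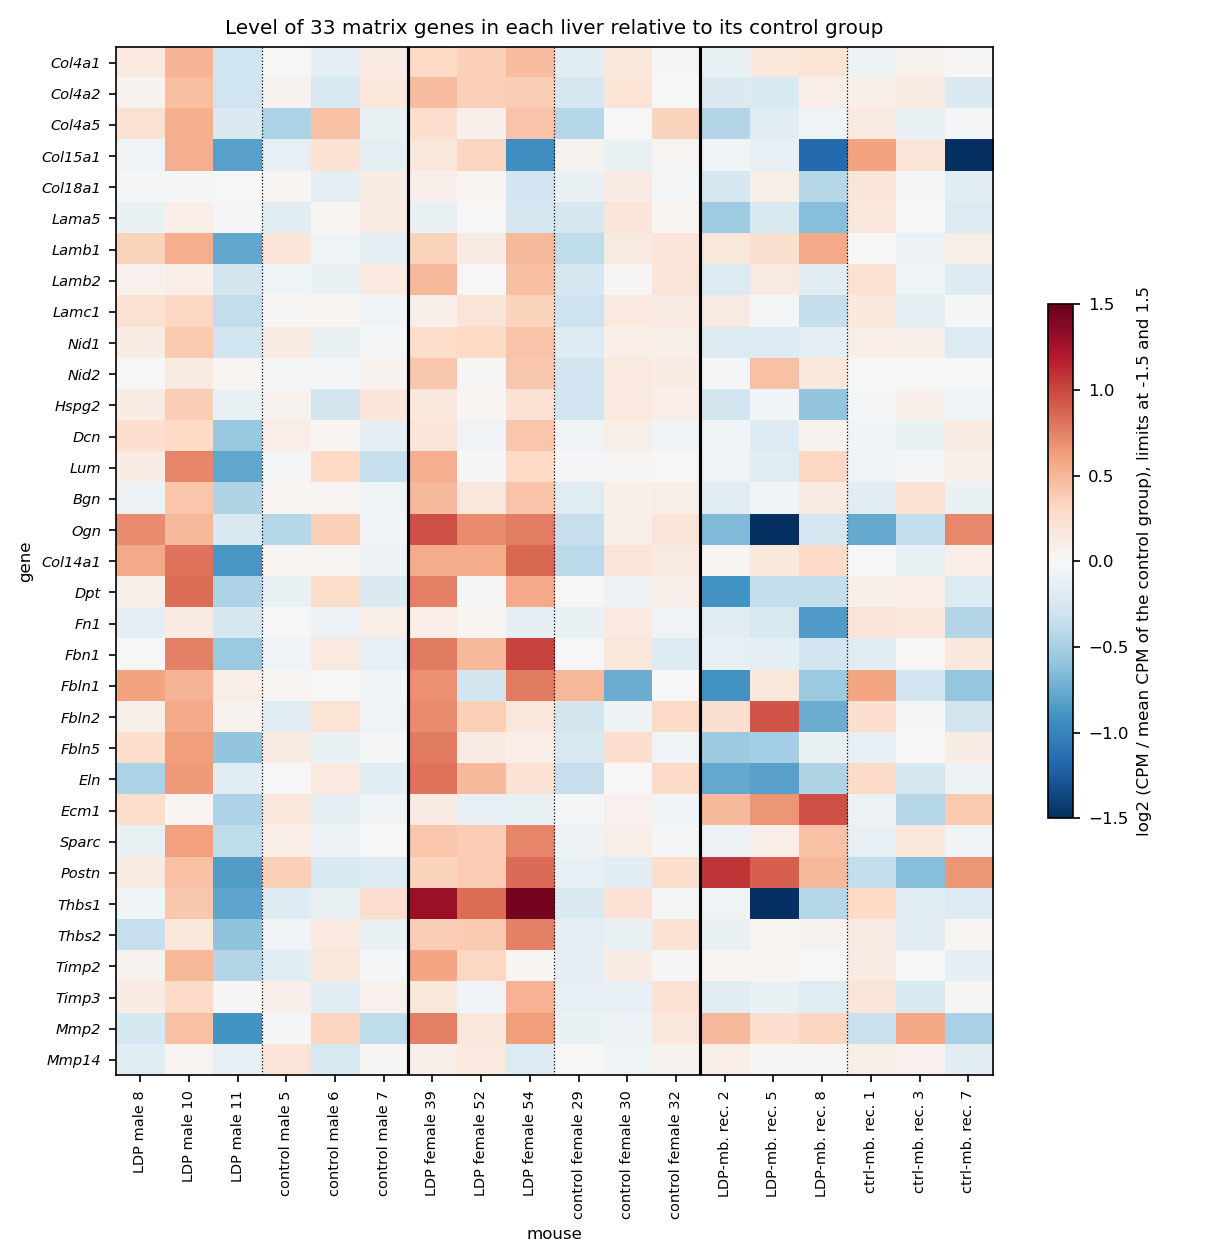
Level of 33 members in each of the 18 livers, as log2 of the CPM over the mean of its own control group (colour; values past 1.5 in either direction take the end colour); LDP mice stand left of their controls in each of the 3 blocks, and Timp1 is left out for its counts of 0. LDP females are mostly above their controls, LDP male 10 is above and LDP male 11 below the control males in most rows, and the recipients are mixed.

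Among the matricellular genes, Thbs1 stood apart. It encodes thrombospondin 1, a secreted glycoprotein that can activate latent TGF-beta, and lies at chr2:118111876-118127133 (mm10, plus strand). Thbs1 was at 3.35, 2.44 and 3.69 CPM in LDP females, against 1.17, 1.59 and 1.33 CPM in control females. The groups did not overlap, and the log2 change was 1.21 ± 0.23 (SE), or 2.31-fold, with an adjusted p of 0.603 in edgeR and 0.0648 in DESeq2. Its relative Thbs2 was at 6.23, 6.30 and 8.16 CPM in LDP females, against 4.40, 4.46 and 5.57 CPM in control females, with a log2 change of 0.52 ± 0.17. Sparc was at 123, 121 and 154 CPM in LDP females, against 88.2, 98.4 and 91.8 CPM in control females (log2 change 0.52 ± 0.12). Postn, which encodes periostin, a matricellular protein of wound fibroblasts, was at 26.2, 27.2 and 37.6 CPM in LDP females, against 19.0, 18.5 and 24.9 CPM in control females (log2 change 0.54 ± 0.17). These 4 genes each had every LDP female above every control female, while the fifth of the group, Ecm1, was at 222, 187 and 189 CPM in LDP females and 201, 213 and 198 CPM in control females, with overlapping groups.

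The basement membrane genes proper had smaller differences, of which those of 3 genes had an unadjusted p under 0.05. Col4a1 was at 57.4, 60.3 and 64.7 CPM in LDP females, against 42.0, 52.7 and 45.9 CPM in control females, and Col4a2 at 41.9, 39 and 39.2 CPM in LDP females, against 25.4, 35.2 and 30.6 CPM in control females. Neither gene's groups overlapped, and the log2 changes were 0.38 ± 0.11 and 0.40 ± 0.12, both with an adjusted p of 0.999 in edgeR. Nid1 (nidogen 1), which links the laminin and collagen IV networks, was at 40.3, 41.0 and 44.8 CPM in LDP females, against 29.1, 35.5 and 35.2 CPM in control females (log2 change 0.34 ± 0.11). The third collagen IV gene, Col4a5, the 4 laminin chains, Nid2 and Hspg2 (perlecan) all had p above 0.05. Their log2 changes ran between -0.11 for Lama5 and 0.33 for Lamb2. Col15a1 and Col18a1, whose products sit at the edge of basement membranes, had log2 changes of -0.04 ± 0.28 and -0.05 ± 0.14.

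Among proteoglycans and fibril-associated genes, Ogn and Col14a1 had the largest estimates. Ogn (osteoglycin), a small leucine-rich proteoglycan, was at 4.54, 3.82 and 3.96 CPM in LDP females, against 1.84, 2.48 and 2.67 CPM in control females. Bgn was at 194, 156 and 186 CPM in LDP females, against 122, 146 and 147 CPM in control females. Both genes had no overlap between groups, with log2 changes of 0.81 ± 0.19 and 0.37 ± 0.12. Lum (lumican) had a smaller difference of 0.30 ± 0.13, and Dcn, the highest of the 4 per kilobase in males, was at 276, 235 and 325 CPM in LDP females, against 235, 260 and 237 CPM in control females (log2 change 0.19 ± 0.14, with overlap). Col14a1, a fibril-associated collagen, was at 97.7, 97.4 and 120 CPM in LDP females, against 50.2, 75.5 and 72.8 CPM in control females, a log2 change of 0.67 ± 0.16 with no overlap. Dpt (dermatopontin), which binds decorin and collagen, had a log2 change of 0.48 ± 0.20 with overlapping groups.

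Of the elastic fibre genes, Fbn1, the gene of the microfibril protein fibrillin 1 (chr2:125300594-125507993, minus strand), was at 8.21, 6.65 and 9.58 CPM in LDP females, against 4.79, 5.36 and 4.14 CPM in control females. The groups did not overlap, and the log2 change was 0.78 ± 0.17, with an adjusted p of 0.924 in edgeR and 0.124 in DESeq2. Eln (elastin) was at 6.31, 5.02 and 4.19 CPM in LDP females, against 2.84, 3.57 and 4.37 CPM in control females, with LDP female 54 inside the control range (log2 change 0.52 ± 0.21). The 3 fibulins had changes of 0.37 to 0.48 with p above 0.05. Mmp2 (gelatinase A) was at 7.02, 4.67 and 6.45 CPM in LDP females, against 3.90, 3.92 and 4.69 CPM in control females; LDP female 52 lay within the controls. Mmp14, the membrane protease that activates pro-MMP2, had a log2 change of 0.02 ± 0.11, and Timp2 and Timp3 had changes of 0.33 ± 0.14 and 0.24 ± 0.16, with p of 0.0501 and 0.172.

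Fn1, the most abundant member per kilobase in males, was at 2463, 2358 and 2088 CPM in LDP females and at 2155, 2550 and 2218 CPM in control females, a log2 change of -0.00 ± 0.14. Along with Fn1, the members whose estimates lay below 0 were Col18a1, Col15a1, Lama5 and Ecm1. Leaving out 1 mouse at a time gave 10 to 17 members with an unadjusted p under 0.05, all of them higher, 0 adjusted calls, and a median log2 change between 0.27 and 0.42. The count was 10 without LDP female 39 and also without control female 30.

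**Figure D2:**
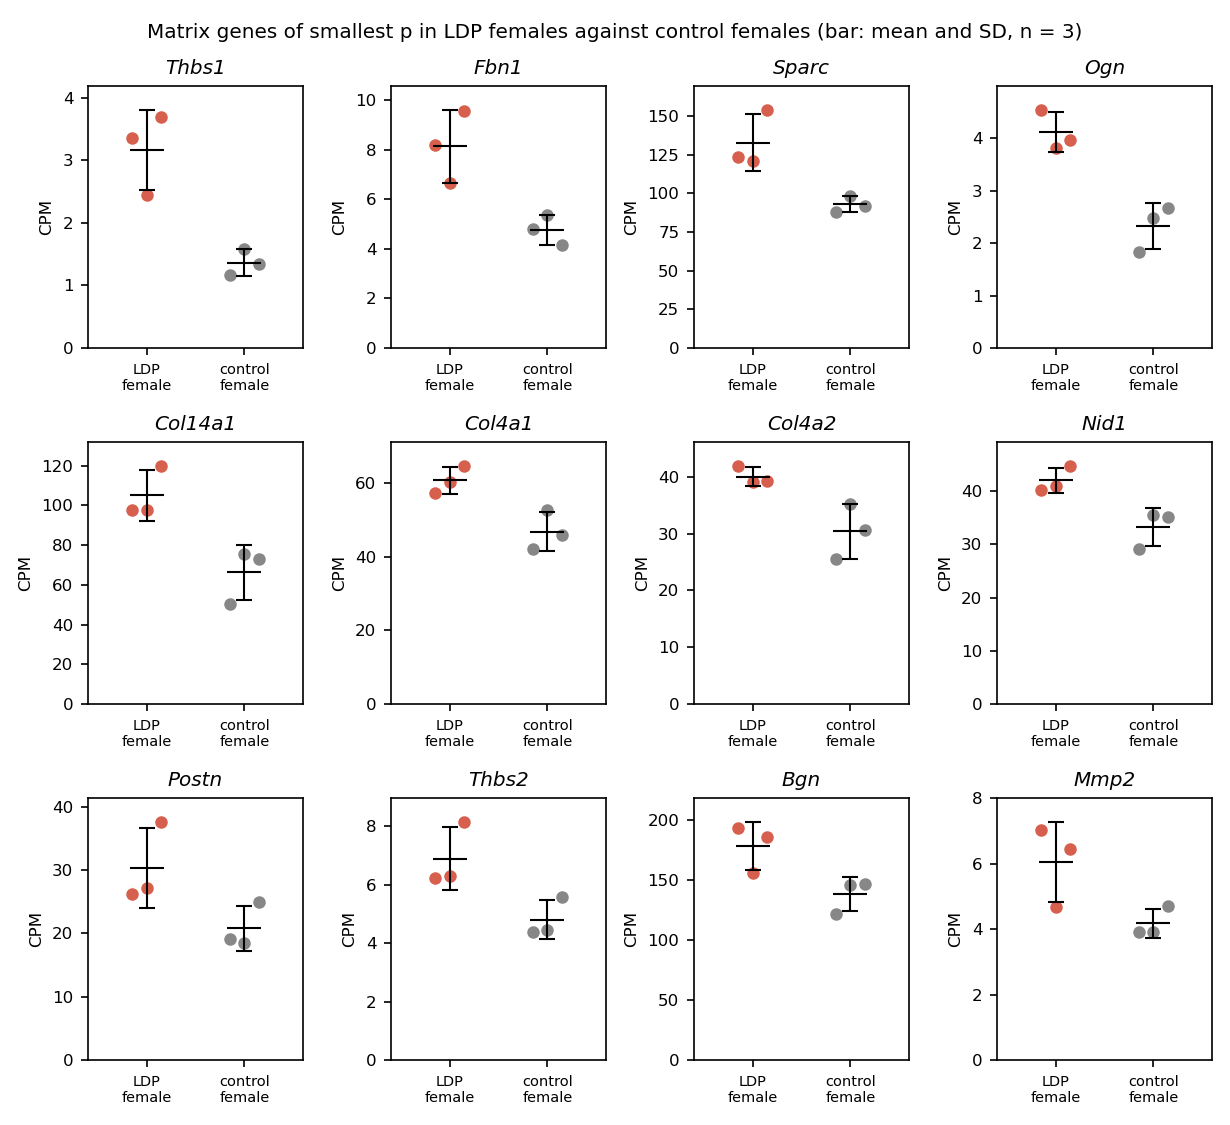
CPM of the 12 members of smallest p in each LDP female (left in each panel) and each control female (right), with the mean and SD of 3 mice as bars; every axis starts at 0. The groups do not overlap in 11 of the 12 panels, and in Mmp2 they do.

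Markers of other cell types lay on both sides of the controls in LDP females. For the counts of markers below, 50.9% of all genes had a log2 change above 0. An unadjusted p under 0.05 was reached by 2.69% of all genes with a higher and 1.82% with a lower level. The summed level of 7 mesothelial markers, genes of the cell layer that covers the liver, was 24.0, 12 and 8.99 CPM in LDP females, against 6.07, 6.84 and 5.75 CPM in control females, with no overlap. LDP female 39 had the highest sum. The median member was 0.41 above the control mean (log2) in LDP female 39, 0.16 in LDP female 52 and 0.43 in LDP female 54, and 32, 28 and 27 of the 33 members lay above the control mean in LDP females 39, 52 and 54. Of 13 stellate cell markers, 10 had a log2 change above 0 and 4 had an unadjusted p under 0.05, and their sum was 742 to 790 CPM in LDP females, against 634 to 763 CPM in control females. The sum of 8 portal fibroblast markers was 26.6 to 38.8 CPM in LDP females, against 19.1 to 31.3 CPM in control females. Markers of arterial and portal endothelium, 8 genes, summed to 237 to 244 CPM in LDP females, against 190 to 238 CPM in control females. Of 10 sinusoidal endothelial markers 8 were lower and 2 higher, with 1 lower and 1 higher at an unadjusted p under 0.05. Their sum was 549 to 587 CPM in LDP females, against 579 to 642 CPM in control females. Smooth muscle markers summed to 14.9 to 19.1 CPM in LDP females, against 13.4 to 17.8 CPM in control females. Of 4 smooth muscle markers tested, 3 were lower and 1 was higher, and only the higher one had an unadjusted p under 0.05. Cholangiocyte markers summed to 41.1 to 74.1 CPM in LDP females, against 43.8 to 58.2 CPM in control females. Apart from the smooth muscle gene Myocd in LDP females, no marker of these lists was at 0 in all 3 mice of a group, and the part of any of these cell types in the matrix differences was not tested.

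**Figure D3:**
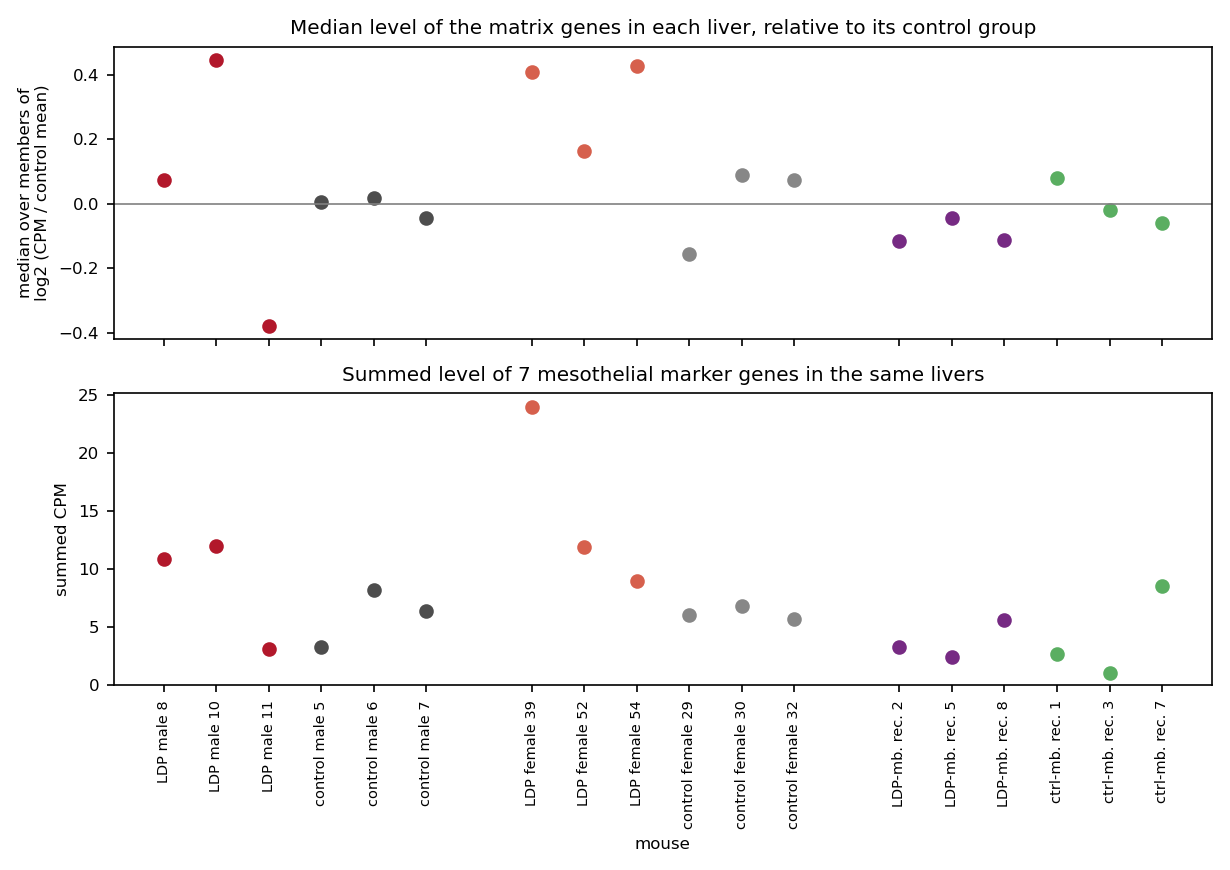
Upper plot: median over the members of log2 (CPM over the mean of the control group) in each liver; lower plot: summed CPM of 7 mesothelial markers in the same livers. The LDP males span from -0.38 to 0.45 in the upper plot, all 3 LDP females lie above all 3 control females in both plots, and the recipients lie between -0.12 and 0.08 in the upper plot.

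Related matrix genes outside the set were counted in the same way in LDP females, list by list, and no difference between lists was tested. Of 9 fibrillar and type VI collagen genes tested, 9 were higher and 8 had an unadjusted p under 0.05, with a median log2 change of 0.74. The lead was Col3a1, which encodes the collagen of reticular fibres, at 95.5 ± 12.1 CPM in LDP females and 44.6 ± 6.45 CPM in control females (SD, n = 3 each). Of 20 further elastic fibre and matrix glycoprotein genes, 18 were higher and 9 had an unadjusted p under 0.05, among them Ltbp1 and Ltbp3, which bind latent TGF-beta. Of 8 further proteoglycan genes, 7 were higher and 3 had an unadjusted p under 0.05. Of 20 further basement membrane genes 14 were higher and 5 had an unadjusted p under 0.05, with a median of 0.16. Of 14 crosslinking and collagen processing genes 7 were higher and 7 lower, with 4 and 1 at an unadjusted p under 0.05, and matrix receptors had a median of 0.06 over 19 genes. TGF-beta ligands, receptors and response genes had a median of 0.07 over 14 genes, with 2 at an unadjusted p under 0.05, Ctgf and Smad7, and of 21 further proteases and inhibitors 4 higher and 1 lower had an unadjusted p under 0.05. In none of these lists did a gene pass after adjustment over all genes with edgeR. Of all genes, 50.9% had a log2 change above 0, and 2.69% higher and 1.82% lower had an unadjusted p under 0.05.

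In males the same treatment gave no member an unadjusted p under 0.05 in edgeR or DESeq2. By their median member, the 3 LDP males lay on both sides of the control males. Of 34 members tested, 23 had a log2 change above 0 (50.7% of 15438 genes did), with a median of 0.09 against 0.00 over all genes. An unadjusted p under 0.05 was reached by 0 members in edgeR and in DESeq2, against 3.17% of all genes with a higher and 2.06% with a lower level, and 0 were called after adjustment, against 0.00648% of all genes in edgeR and 0.355% in DESeq2. The smallest p was that of Fbln1, whose product binds fibronectin and elastic fibres, at 1.79, 1.68 and 1.27 CPM in LDP males, against 1.21, 1.19 and 1.15 CPM in control males (log2 change 0.42 ± 0.20, adjusted p of 0.920 in edgeR). Fbln1 was the only member without overlap between the male groups, against 5.7% of all genes that were higher and 4.81% that were lower without overlap.

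LDP male 10 was the highest of the 6 males in 27 of 34 members and LDP male 11 the lowest in 22. Relative to the control mean, the median member was at 0.45 (log2) in LDP male 10, 0.07 in LDP male 8 and -0.38 in LDP male 11, while the control males lay between -0.04 and 0.02. Col14a1 was at 121, 144 and 44.5 CPM in LDP males, against 83.4, 83.6 and 77.5 CPM in control males, so the control values fell inside a much wider LDP range. Sparc was at 60.7, 100 and 50.1 CPM in LDP males, against 69.9, 61.4 and 64.9 CPM in control males. Lamb1, a laminin beta chain, was at 16.3, 18.7 and 7.45 CPM in LDP males, against 14.6, 12.2 and 11.6 CPM in control males. In each of these 3 genes mouse 10 was the highest and mouse 11 the lowest of the 6.

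The male result depended on which of these mice was kept. Without LDP male 10, 4 members had an unadjusted p under 0.05, all lower, and the median log2 change was -0.11. Without LDP male 11, 9 had an unadjusted p under 0.05, all higher, the median was 0.27, and 1 member, Col14a1, was called after adjustment with edgeR. The shares of all genes in these fits without 1 mouse are not given here. These counts therefore do not tell whether the members moved more than other genes. The mesothelial sum was 10.9, 12 and 3.11 CPM in LDP males, against 3.33, 8.26 and 6.40 CPM in control males, and the stellate marker sum was 701, 736 and 634 CPM in LDP males, against 720, 680 and 647 CPM in control males. LDP male 11 was lowest of the 6 in both sums. The sum of 7 cholangiocyte (bile duct) markers was 59.5, 100.5 and 53.7 CPM in LDP males, against 56.7, 44.4 and 68.8 CPM in control males, with LDP male 10 the highest of the 6. The part of these cells in the high matrix levels of LDP male 10 and the low ones of LDP male 11 was not tested. The sum of 9 Kupffer cell markers was 388 to 420 CPM in LDP males, against 449 to 555 CPM in control males, with 6 of the 9 lower at an unadjusted p under 0.05, and its part was not tested either. Of the other matrix lists in males, fibrillar and type VI collagens had 9 of 9 above 0 with a median of 0.16 and 0 at an unadjusted p under 0.05, and further basement membrane genes had 17 of 24 above 0, with 4 at an unadjusted p under 0.05, led by Fras1. The other 6 lists had medians between -0.06 and 0.14, and 0 genes of any of the 8 lists passed after adjustment. Of all genes in males, 50.7% were above 0, and 3.17% higher and 2.06% lower had an unadjusted p under 0.05.

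Whether the LDP effect differed between the sexes was tested directly, as the difference of the 2 log2 changes in 1 fit over the counts of both tables. The sexes were deposited in separate tables of different depth, so sex and table cannot be told apart. Of 34 members, 30 had a larger log2 change in females, against 52.7% of 12747 genes, with a median difference of 0.23. An unadjusted p under 0.05 was reached by Thbs1, with a difference of 1.28 ± 0.40, and Thbs2, with 0.75 ± 0.27, both larger in females, against 1.48% of all genes in that direction and 1.22% in the other. Thbs1 was at 2.85, 3.91 and 1.70 CPM in LDP males, against 2.59, 2.75 and 3.50 CPM in control males, with overlapping groups. Next in order of p were Lamb2, Mmp2, Fbn1 and Bgn, with differences of 0.36, 0.68, 0.61 and 0.37, each with p above 0.05. No member was called after adjustment (adjusted p of 1.0 for each in edgeR, 0 called by DESeq2, against 0.00785% of all genes), and the number with an unadjusted p under 0.05 was 10 of 33 without LDP male 10. With LDP male 10 left out the median difference was 0.43, and with LDP male 11 left out it was 0.03.

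**Figure D4:**
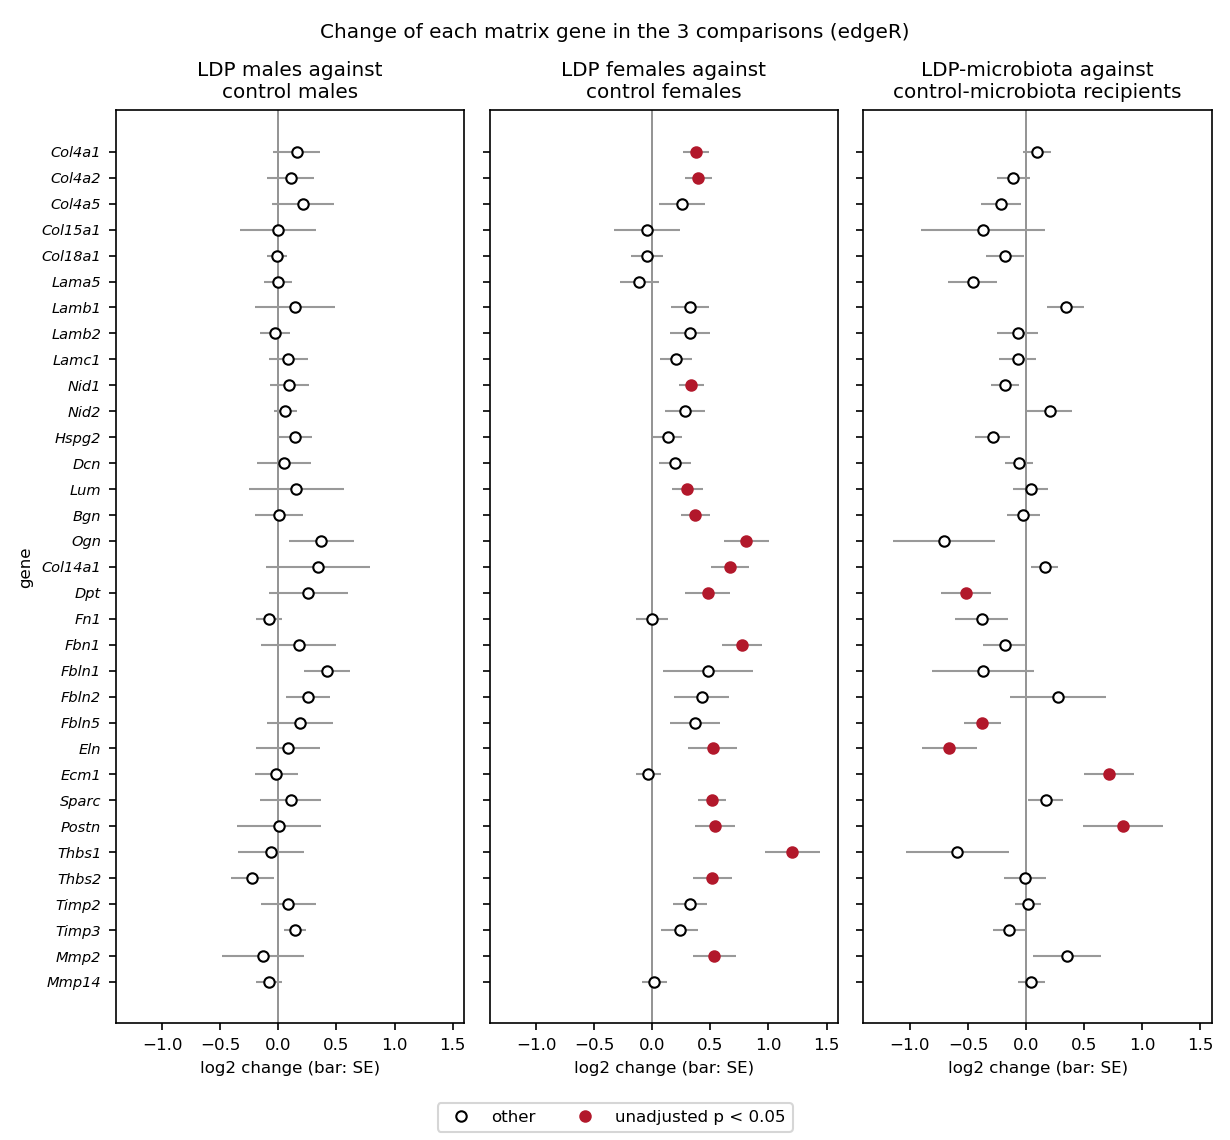
Log2 change (point) and its SE (bar) of 33 members in LDP males against control males, LDP females against control females, and LDP-microbiota against control-microbiota recipients; filled points have an unadjusted p under 0.05. Filled points number 0 in males, 15 in females, all right of 0, and 5 in recipients, with Ecm1 and Postn right of 0 and Eln, Dpt and Fbln5 left of it.

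The transfer experiment asked whether the microbiota of LDP mice, without the antibiotic, gave germ-free recipients a different liver. The matrix genes as a group were close to the controls there, and single members lay on either side. Of 33 members tested, 12 had a log2 change above 0 (48.4% of 12780 genes did), with a median of -0.07 against -0.01 over all genes. An unadjusted p under 0.05 was reached by 2 members that were higher, against 2.25% of all genes, and by 3 that were lower, against 2.86%. With edgeR, 0 members were called after adjustment (0.00782% of all genes were), the lowest adjusted p being 0.846. DESeq2, which assigned an adjusted p to 3 of the 33, called 0 of them, against 4.38% of the 639 genes to which it gave one. Groups did not overlap in 2 members that were higher (6.1% of all genes) and 3 that were lower (5.5%).

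Both higher members were matricellular. Ecm1, a secreted glycoprotein abundant in liver (chr3:95734147-95739569, minus strand; promoter above), was at 166, 188 and 232 CPM in LDP-microbiota recipients, against 112, 88.4 and 156 CPM in control-microbiota recipients. The groups did not overlap, and the log2 change was 0.72 ± 0.21, or 1.64-fold, with an adjusted p of 0.846 in edgeR. Postn was at 19.6, 17.5 and 13.2 CPM in LDP-microbiota recipients, against 7.23, 6.00 and 14.9 CPM in control-microbiota recipients. Control-microbiota recipient 7 lay among the LDP-microbiota recipients (log2 change 0.83 ± 0.34). The 3 lower members belong to elastic fibres and fibrils. Eln was at 1.68, 1.63 and 2.09 CPM in LDP-microbiota recipients, against 3.49, 2.39 and 2.70 CPM in control-microbiota recipients, and Dpt was at 2.41, 3.53 and 3.51 CPM in LDP-microbiota recipients, against 4.75, 4.83 and 3.92 CPM in control-microbiota recipients. Neither gene's groups overlapped, with log2 changes of -0.66 ± 0.24 and -0.52 ± 0.22. Fbln5 (fibulin 5), which helps assemble elastic fibres, was at 8.27, 8.46 and 11.2 CPM in LDP-microbiota recipients, against 11.1, 12.1 and 13.1 CPM in control-microbiota recipients, with LDP-microbiota recipient 8 just inside the control range (log2 change -0.38 ± 0.16).

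Collagen IV genes had log2 changes of -0.21 to 0.09 in recipients and the small leucine-rich proteoglycans -0.71 to 0.04, all with p above 0.05. Col15a1 varied widely within both groups, at 4.64, 4.39 and 2.13 CPM in LDP-microbiota recipients and 7.28, 5.46 and 1.63 CPM in control-microbiota recipients. The count at an unadjusted p under 0.05 moved between 2 and 8 when 1 mouse was left out: it was 2 without control-microbiota recipient 1 or without LDP-microbiota recipient 2, 3 without control-microbiota recipient 3, and 8 without control-microbiota recipient 7. The median log2 change of the members was 0.00 without control-microbiota recipient 1 and -0.18 without LDP-microbiota recipient 5. The mesothelial sum was 3.32, 2.44 and 5.61 CPM in LDP-microbiota recipients, against 2.68, 1.04 and 8.58 CPM in control-microbiota recipients, with overlap. In 7 smooth muscle markers the sum was 7.97 to 13.5 CPM in LDP-microbiota recipients, against 12.5 to 14.4 CPM in control-microbiota recipients, and Acta2 and Myh11, which also mark vessel walls, had an unadjusted p under 0.05 with lower levels; their part in the lower Eln was not tested. Pancreatic acinar markers, of which 6 of 8 were at 0 in all 3 LDP-microbiota recipients and 5 in all 3 control-microbiota recipients, summed to 41.6 to 55.9 CPM in LDP-microbiota recipients, against 19.7 to 34.7 CPM in control-microbiota recipients, and their part was not tested. Of the other lists, further basement membrane genes had 4 of 19 above 0, matrix receptors 3 of 19 and TGF-beta genes 3 of 14, while further elastic fibre and glycoprotein genes had 15 of 18. Fibrillar and type VI collagens had 5 of 9 above 0, and 0 genes of the 8 lists passed after adjustment. Of all genes in recipients, 48.4% were above 0.

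The LDP effect in females and the LDP-microbiota effect in recipients share no mice, and their difference was tested over the 12 livers of the table of females. Of 33 members, 29 had a larger log2 change in LDP females, against 49.7% of 13295 genes, with a median difference of 0.37. An unadjusted p under 0.05 was reached by 10 members with a larger change in females, against 2.95% of all genes, and by Ecm1 in the other direction, against 2.99%. Fbn1 had a difference of 0.95 ± 0.24, Eln of 1.17 ± 0.32, Thbs1 of 1.78 ± 0.49, Dpt of 0.98 ± 0.30, Nid1 of 0.51 ± 0.16 and Ecm1 of -0.77 ± 0.25. Eln and Dpt were among the higher members in LDP females and among the lower ones in LDP-microbiota recipients. For Thbs1 the recipient values were 0.864, 0.217 and 0.673 CPM with LDP microbiota, against 1.11, 0.812 and 0.793 CPM with control microbiota, a log2 change of -0.59 ± 0.44. These Thbs1 values rest on 4 to 19 reads per liver with LDP microbiota and 17 to 22 with control microbiota, so its difference is imprecise. No member was called after adjustment (lowest adjusted p 0.788 in edgeR; 0 called by DESeq2, against 0.0921% of all genes), and the count at an unadjusted p under 0.05, 11 in both directions, was 7 without control female 29.

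Control-microbiota recipients and control females differ in strain and in colonisation history, and housing may differ too. The weeks of weaning and of the start of the high-fat diet are known for control females only. None of these can be told apart, and both groups also serve as controls above. In this comparison 5 members were called after adjustment with edgeR, against 8.44% of 12871 genes, which is 1086 genes. Timp2, the inhibitor that also helps MMP14 activate pro-MMP2 (chr11:118301069-118355740, minus strand), was higher in control-microbiota recipients. It was at 33, 30.4 and 27.5 CPM there, against 14.8, 17.6 and 16.5 CPM in control females. The log2 change was 0.88 ± 0.11 (adjusted p = 0.00252 in edgeR). Fbln5 was also higher, at 11.1, 12.1 and 13.1 CPM in control-microbiota recipients, against 4.79, 6.70 and 5.43 CPM in control females. Its log2 change was 1.09 ± 0.16 (adjusted p = 0.00460 in edgeR). Timp2 and Fbln5 were the 2 of 33 members that were higher without overlap, against 14% of all genes.

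Timp3, a matrix-bound inhibitor (chr10:86300372-86349506, plus strand), was lower in control-microbiota recipients. It was at 20.2, 15.3 and 18.1 CPM there, against 29.7, 29.7 and 37.5 CPM in control females. The log2 change was -0.86 ± 0.14 (adjusted p = 0.00740 in edgeR). The host gene of Timp3, Syn3, lies on the other strand, as given above. Lamb1 was lower, at 7.53, 7.13 and 8.02 CPM in control-microbiota recipients, against 10.1, 14.3 and 14.8 CPM in control females. Its log2 change was -0.80 ± 0.17 (adjusted p = 0.0224 in edgeR). Ecm1 was lower too, at 112, 88.4 and 156 CPM in control-microbiota recipients, against 201, 213 and 198 CPM in control females. Its log2 change was -0.79 ± 0.19 (adjusted p = 0.0413 in edgeR). In all 3 genes, Timp3, Lamb1 and Ecm1, the groups did not overlap. Nid2, the second nidogen, was at 3.39, 3.38 and 3.40 CPM in control-microbiota recipients, against 4.40, 5.95 and 5.8 CPM in control females, with an adjusted p of 0.0531 in edgeR and 0.0375 in DESeq2. The calls of Timp2, Timp3 and Fbln5 held in each of the 6 fits that left out 1 mouse. Ecm1 lost its call in 5 of those 6 fits and Lamb1 in 4, so that 3 members were called without control-microbiota recipient 1, control female 30 or control female 32.

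Over the set, 7 of 33 members had a log2 change above 0 (51.2% of all genes did), and the median was -0.23 against 0.01 over all genes. In 11 members every control-microbiota recipient lay below every control female, against 13.9% of all genes, among them Col4a1, Nid1, Nid2, Postn, Thbs1 and Thbs2. DESeq2 called 8 members, against 11.1% of all genes, the same 5 with Nid2, Col4a1 and Postn. The LDP-microbiota recipients, whose Ecm1 values of 166, 188 and 232 CPM lay beside the 201, 213 and 198 CPM of control females, had Timp2 at 30.8, 31.0 and 30.1 CPM and Timp3 at 15.9, 16.7 and 15.8 CPM, both apart from every C57BL6J female. Fibrillar and type VI collagens were lower in 9 of 9 genes, with 5 called after adjustment, and Col1a1 was at 2.73 ± 0.144 CPM in control-microbiota recipients and 7.03 ± 1.52 CPM in control females (SD, n = 3 each). The sum of stellate markers overlapped, at 668 to 729 CPM in control-microbiota recipients and 634 to 763 CPM in control females, as did the mesothelial sum, at 1.04 to 8.58 CPM in control-microbiota recipients and 5.75 to 6.84 CPM in control females. The 8 markers of arterial and portal endothelium summed to 163 to 170 CPM in control-microbiota recipients, against 190 to 238 CPM in control females, and their part in the lower basement membrane genes was not tested.

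**Figure D5:**
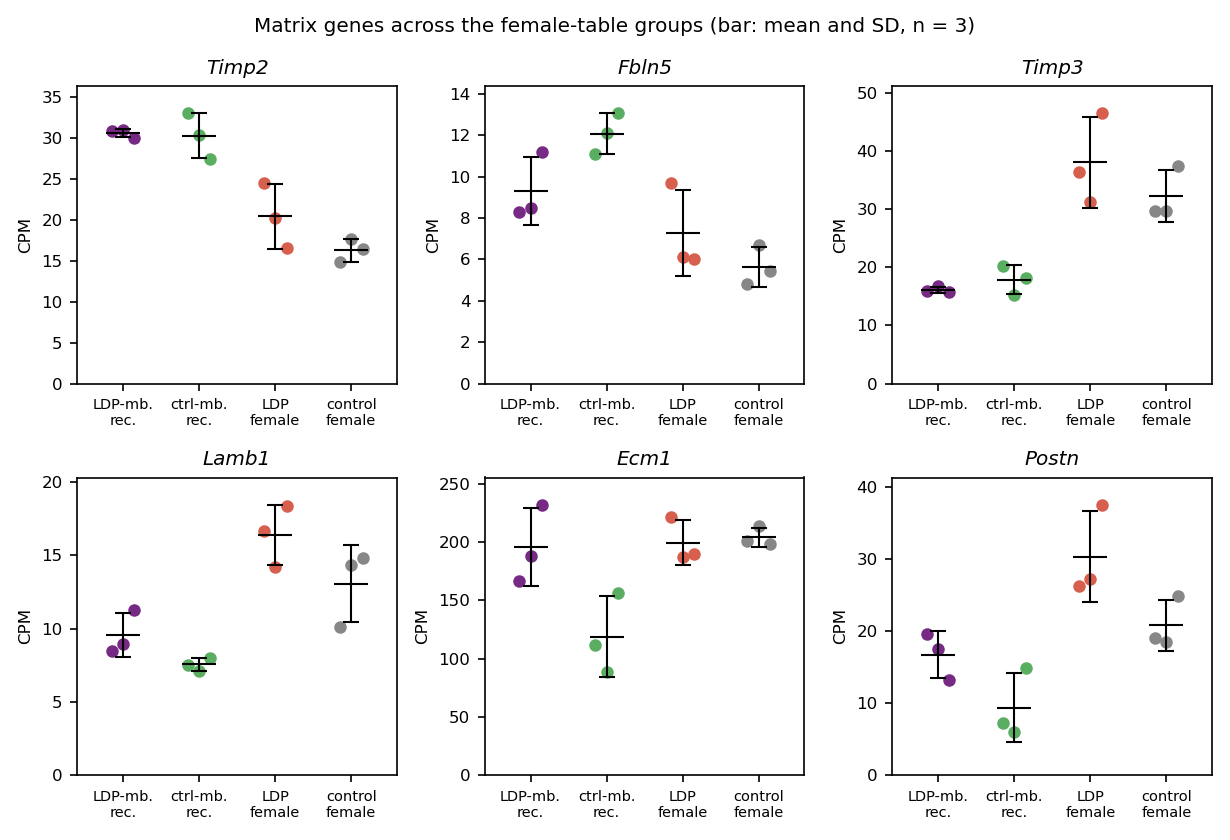
CPM of Timp2, Fbln5, Timp3, Lamb1, Ecm1 and Postn in each liver of the 4 groups of females, with the mean and SD of 3 mice as bars; from left to right LDP-microbiota recipients, control-microbiota recipients, LDP females and control females, with axes from 0. Timp2 is higher and Timp3 lower in all 6 recipients than in all 6 C57BL6J females, and Ecm1 is lowest in control-microbiota recipients.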

How the data were processed

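Liver RNA was prepared with the RNeasy Mini Kit and made into TruSeq v2 libraries, per the labels' protocols. The authors deposited raw read counts per gene in a table of 6 males (versioned Ensembl IDs with a gene length in another column, which the authors deposited beside the counts) and a table of 12 females (gene symbols). Per the submitters' processing notes, tools were STAR 2.3.0e, HTSeq 0.5.3p9, featureCounts 1.4.3-p1 and DESeq with build mm10; which tool made which table, the strand setting and the handling of reads that match several genes are not given in the sources used here. For males, 96.6% of IDs matched a symbol in GENCODE M21 names.

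Low genes were removed with filterByExpr, at a minimum count of 10 and a minimum total of 15. TMM-scaled counts were tested with edgeR 4.0.16 (robust quasi-likelihood, R 4.3.3) in each pair of groups, with Benjamini-Hochberg adjustment over all genes and a threshold of 0.05. SE is the log2 change divided by the root of F, an approximation. A difference of LDP effects was an interaction term, across tables on the 20058 symbols they share. CPM of single mice use TMM factors over all libraries of a table. Alternatives were DESeq2 1.42.0, RLE and upper-quartile factors, a fit without the robust option, no removal of low genes, removal under an average of 1 CPM, 1 spread for the 12 females, and leaving out each mouse. The fit was tested on simulated data.

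The members, gene lists and tests were chosen with earlier results of these data known. Genes given mouse by mouse were up to 12 per main comparison and up to 6 in the others, by smallest p, and up to 3 of smallest p per list; Dcn, Fn1, Col15a1, Nid2, Lamb1, Eln and Ecm1 in females, Col14a1 and Sparc in males, Postn in the plot of the groups of females, and the values of a gene in a further comparison, were added for their role or level after values were seen. No 2 libraries of a group agreed within sampling noise.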

Additional observations from a re-analysis of the deposited data

How the results depend on the processing

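No paired analysis was possible because the groups compared share no replicate numbers. Of 108 group results under other tools, scalings and filters, 105 stayed within set limits, and none of the 108 reversed. The limit was a factor of 1.5 for counts of members. For median log2 changes it was the SD of the median member between mice of the same group. With control-microbiota recipients against control females, 8 members were called by DESeq2 and with 1 spread for the 12 females, against 5, and 3 to 6 without 1 mouse. In recipients, DESeq2 gave 3 members at an unadjusted p under 0.05, against 5, and leaving out 1 mouse gave 2 to 8 and medians of -0.1772 (without LDP-microbiota recipient 5) to 0.0017 (without control-microbiota recipient 1). In males, leaving out 1 mouse gave 0 to 9 members at an unadjusted p under 0.05 and 0 to 1 adjusted calls, with medians from -0.11 to 0.27. For the difference between sexes that range was 2 to 10 members, and for the difference between females and recipients 7 to 13. For none of the fits without 1 mouse is the share of all genes given here. Some further members passed the adjusted threshold between control-microbiota recipients and control females in other fits only. Nid2 did so under DESeq2, upper-quartile factors, 1 spread for the 12 females and without control female 29. Col4a1 and Postn did so under DESeq2 and with 1 spread for the 12 females. Postn also passed without control-microbiota recipient 7, and Mmp2 passed without control-microbiota recipient 3. Why these values moved was not tested. The fits that left out 1 mouse also had fewer mice. With 3 mice a group, precision is limited by the spread between mice as well as by depth.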
